A study of Mus musculus with 6 samples.

Results

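Cluster 4 is 1 of 11 groups of cells that the authors separated by clustering single-cell RNA profiles of mouse haematopoietic stem cells (HSCs), the bone marrow cells from which all blood lineages arise. Its members were taken by the authors' own cluster number. It held 3747 of 22378 cells (16.7%), a number read from the deposited p-values, and the 18631 other cells lay in clusters 0 to 3 and 5 to 10. The cells were sorted from bone marrow of Gfp-Lc3 mice, so that all groups express LC3, a protein of autophagosome membranes, fused to GFP. A young and an old mouse provided a library each for ad libitum feeding, for a 24-hour fast and for such a fast with 24 hours of refeeding after it, which makes 6 libraries of 1 mouse. Per the labels, each library began with about 30000 sorted cells, of which about 10000 were loaded.

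The deposited tables set each cluster against the cells of the other clusters, with the 6 libraries pooled, for 17068 genes and 2922 pathways. They hold no values by library, so no value below has an error between animals, and the share of each age or feeding group in cluster 4 was not analysed here. The unit of the gene tables is the log2 ratio of the mean level in the cluster to that in all other cells, called the fold below. Clusters had been defined on these same expression values, so a fold is a description of cluster 4 and not a test. Calls of higher or lower required a fold of 0.5 or more in either direction and an adjusted p below 0.05 by the authors' table. That p treats cells as replicates and served only to remove noise. Levels are given as counts per 10000 counts of a cell. They were rebuilt for cluster 4 and for other cells from the deposited mean level, the fold and the cell numbers, and are approximate. The tables give no counts per gene, so levels carry no counting interval.

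Immediate early genes are transcribed within minutes of a stimulus without new protein synthesis. They encode AP-1 transcription factors, which are dimers of FOS and JUN family proteins, zinc finger factors of the EGR family, nuclear receptors of the NR4A family, and phosphatases and RNA-binding proteins that switch the response off. In HSCs they are known to respond to cytokines and to the stress of cell isolation, and several of them, including Egr1, Junb and Nr4a1, are also known to restrain HSC proliferation.

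Promoters are shown for Fos, Fosb and Jun, the AP-1 genes that were called higher in cluster 4. Each runs from 250 bases before to 50 bases after the transcription start in the RefSeq annotation of GRCm38.p6, the build also known as mm10. Capitals mark matches to the motifs searched on both strands, which were the cyclic AMP response element TGACGTCA, its shorter form TGACGT, the AP-1 site TGANTCA, the variant AP-1 site TGACATCA, and the CArG box that binds serum response factor. The shorter form also lies within the full cyclic AMP response element. The windows are chr12:85473640-85473939 on the plus strand for Fos, chr7:19309996-19310295 on the minus strand for Fosb and chr4:95052173-95052472 on the minus strand for Jun.
Fos: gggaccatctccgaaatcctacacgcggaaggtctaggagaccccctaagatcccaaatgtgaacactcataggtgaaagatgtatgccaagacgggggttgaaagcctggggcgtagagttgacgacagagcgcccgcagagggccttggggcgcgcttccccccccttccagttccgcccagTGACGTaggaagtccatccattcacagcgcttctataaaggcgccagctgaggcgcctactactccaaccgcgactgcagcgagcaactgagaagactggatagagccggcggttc
Fosb: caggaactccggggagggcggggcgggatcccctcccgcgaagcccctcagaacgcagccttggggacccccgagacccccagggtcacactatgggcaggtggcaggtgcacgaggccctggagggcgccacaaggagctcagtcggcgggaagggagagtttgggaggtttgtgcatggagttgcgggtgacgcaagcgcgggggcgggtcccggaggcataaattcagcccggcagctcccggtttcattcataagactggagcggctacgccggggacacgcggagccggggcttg
Jun: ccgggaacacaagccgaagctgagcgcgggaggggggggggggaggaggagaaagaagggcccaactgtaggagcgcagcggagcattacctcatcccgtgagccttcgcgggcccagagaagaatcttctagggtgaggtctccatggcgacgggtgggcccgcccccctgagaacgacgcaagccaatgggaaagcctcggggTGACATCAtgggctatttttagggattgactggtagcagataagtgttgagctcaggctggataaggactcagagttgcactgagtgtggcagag
The Fos window held TGACGT starting at position -66 from the transcription start, and the Jun window held TGACATCA at -45. The Fosb window held none of these letters. Among all 32851 promoter windows of this length, 7.51% held TGACGT, 3.62% TGACATCA, 7.81% TGANTCA, 1.79% TGACGTCA and 1.63% the CArG box. A match describes the letters in these windows and says nothing of binding.

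Cluster 4 carried the genes of HSCs, and 12 of 12 markers of long-term HSCs had a fold above 0, against 52.2% of all genes. By the authors' deposited tables their median was 0.13 in cluster 4, with none called. It was 0.38 in cluster 2, with 4 called higher, 0.40 in cluster 10, and between -0.44 and 0.05 in the remaining clusters. A longer list of 33 long-term HSC identity genes had 26 above 0. Its median was 0.06 in cluster 4 and 0.24 in cluster 2. The summed level of the 12 markers was 20.2 in cluster 4 and 17.3 in other cells. Procr, the receptor known as EPCR, was at 1.67 in cluster 4 and 1.57 in other cells, and Slamf1 (CD150) at 0.399 in cluster 4 and 0.362 in other cells. Kit, the stem cell factor receptor, was at 2.59 in cluster 4 and 2.22 in other cells, and Ly6a (SCA-1) at 2.05 in cluster 4 and 1.94 in other cells. No gene of the 12 marker lists for other cell types was called higher in cluster 4. Klf1 of red cells, Fcer1a of mast cells and basophils and Ms4a3 of granulocyte-monocyte progenitors were called lower. Of the red cell markers 6 of 8 had a fold above 0, with a median of 0.38 in the authors' deposited table, and their summed level was 2.97 in cluster 4 and 2.46 in other cells. Of the neutrophil markers 7 of 8 had a fold above 0, with a median of 0.23, and they summed to 0.251 in cluster 4 and 0.228 in other cells. Sums of granulocyte-monocyte progenitor markers were 9.01 in cluster 4 and 8.35 in other cells, and of megakaryocyte or platelet markers 1.19 in cluster 4 and 1.37 in other cells. Proliferating cell markers, such as Mki67 and Top2a, summed to 0.323 in cluster 4 and 0.345 in other cells. Dendritic cell markers summed to 1.99 in cluster 4 and 1.78 in other cells, monocyte or macrophage markers to 2.59 in cluster 4 and 2.77 in other cells, and B cell markers to 0.376 in cluster 4 and 0.414 in other cells. Endothelial markers were at 3.74 in cluster 4 and 3.73 in other cells, and T or NK cell markers at 0.471 in cluster 4 and 0.447 in other cells. No marker detected in the series was without a count in cluster 4. Of the red cell markers the alpha globin gene Hba-a1 was at 0.722 in cluster 4 and 0.485 in other cells, and its fold of 0.57 in the authors' deposited table was not called. The part of these cell types in the results was not tested.

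Depth could be judged only indirectly, and the available measures differed. The number of genes left without a count corresponds to 15555 counts per cell in cluster 4, against 9579 to 13997 in the other clusters from 0 to 9 and 49249 in cluster 10, which held 10 cells. The few cells whose depth could be read directly, from genes counted in a single cell, did not show this, with 7386, 8386, 10972 and 22599 counts for 4 cells of cluster 4, against a median of 14848 for 15 other cells. In cluster 4, 186 listed genes had no count, which allows a share of up to 0.0801% of its cells with a counted molecule of any 1 of them. This limit covers counting error only. The part of depth in the results below was not tested.

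By the rule above, 66 genes (0.387% of those with a count) were higher in cluster 4 and 230 (1.35%) were lower. Of the 66 higher genes, 19 had a mean level at or above the median of 0.0971 counts per 10000. Genes past that level are called well detected below. Of the 230 lower genes, 89 had no count in cluster 4, and of the other 141 only Plac8 was well detected. Differences in well-detected genes were therefore small, so a second rule was used for the 8534 genes at or above the median level, a fold of at least 0.3 with the same adjusted p. It gave 173 higher genes (2.03%) and 19 lower genes (0.223%). Of well-detected genes 51.4% had a fold above 0, and of all genes 52.2%.

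The AP-1 genes Fosb, Fos and Jun were among the 4 highest folds of well-detected named genes in cluster 4. Fos, the founding member of its family, was at 3.24 counts per 10000 in cluster 4 and 2.13 in other cells. By the authors' deposited tables its fold was 0.61 in cluster 4, against 0.38 for cluster 1, 3.26 for cluster 9 and -0.63 for cluster 3. Fosb, a FOS family partner of JUN proteins, was at 1.2 in cluster 4 and 0.761 in other cells, with a fold of 0.66 in the authors' deposited table. Jun, the main JUN family subunit, was at 8 in cluster 4 and 5.32 in other cells, with a fold of 0.59. For all of these genes the value in cluster 4 exceeded that of clusters 0, 1, 2, 3 and 5 and lay below that of cluster 9.

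Levels over the clusters place these genes in order. Fos was at 3.24 in cluster 4, against 21.3 for cluster 9, 5.03 for 10, 2.85 for 1, 2.5 for 7 and 2.28 for 2, and between 1.54 and 1.96 in clusters 0, 3, 5, 6 and 8. Jun was at 8 in cluster 4, against 21.1 for cluster 9, 9.41 for 10 and 7 for 1, and it lay between 3.84 and 5.98 in clusters 0, 2, 3, 5, 6, 7 and 8. Fosb was at 1.2 in cluster 4, against 2.74 in cluster 9 and 1.00 in clusters 7 and 10, and between 0.618 and 0.875 in the remaining clusters. The tables give no spread over samples, so neighbours in these orders, such as clusters 4 and 1 for Jun, could not be compared against an error.

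**Figure D1:**
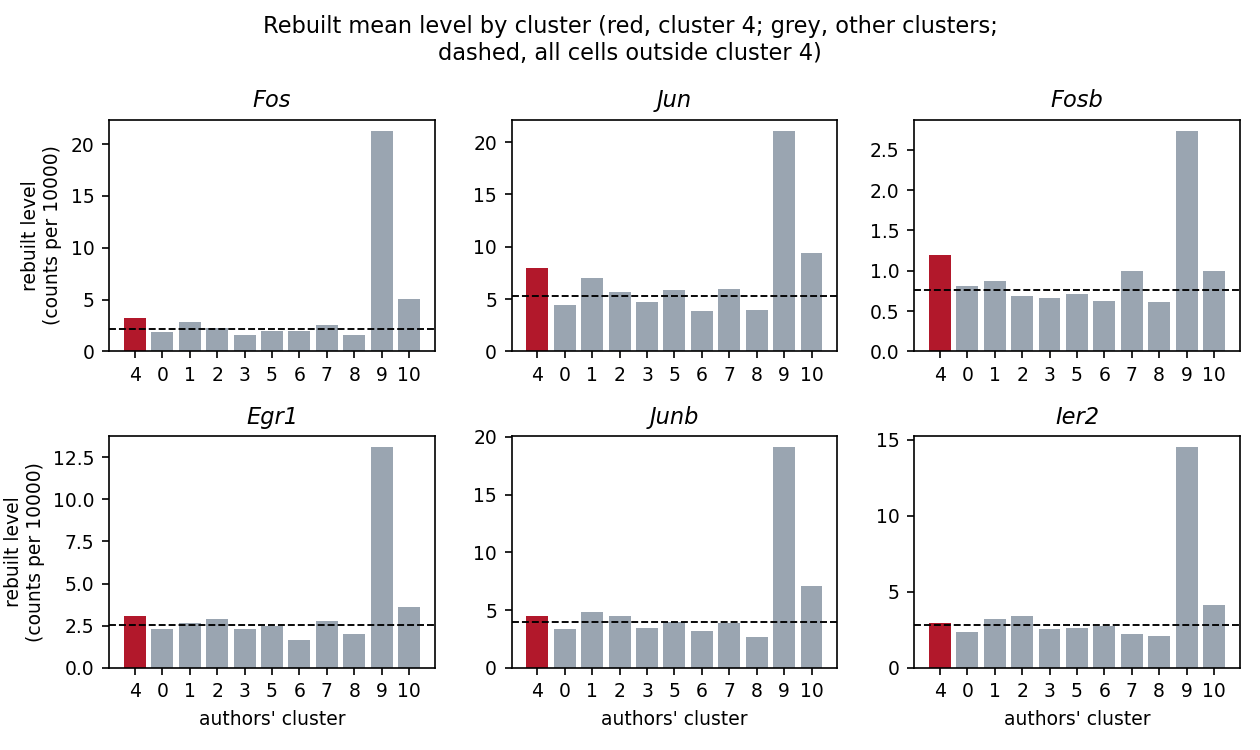
Rebuilt mean level (counts per 10000, linear axis from 0) of 6 immediate early genes in each of the authors' clusters, cluster 4 in red at the left and the other clusters in grey, with a dashed line at the level in all cells outside cluster 4. Cluster 9 is highest for each gene, with Fos at 21.3 against 3.24 in cluster 4.

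Across the AP-1 family most members were not called. Of 19 measured AP-1 subunits, 3 were called higher, 1 was called lower and 11 had a fold above 0, with a median of 0.08 in the authors' deposited table. The shares over all genes were 0.387%, 1.35% and 52.2% in that order. Jund, a JUN family subunit present in resting cells, was at 6.17 in cluster 4 and 5.03 in other cells, with a fold of 0.30. Junb, a JUN family subunit, was at 4.45 in cluster 4 and 4 in other cells, with a fold of 0.15, and was below its value in cluster 1 (0.30) in the authors' deposited tables. Fosl2 had a fold of 0.22, and the FOS-related Fosl1, found at 0.00451 counts per 10000 in cluster 4 and 0.00784 in other cells, was called lower at -0.80 in the authors' deposited table. Atf3, a stress-induced partner of JUN, was at 0.00199 in cluster 4 and 0.00324 in other cells and was not called.

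Values of the EGR and NR4A factors lay below those of Fosb, Fos and Jun, with a list median above that of the AP-1 subunits. Of 9 measured members 8 had a fold above 0, against 52.2% of all genes, with a median of 0.30 in the authors' deposited table. Of these 1, Egr3, was called higher at 0.57, against 0.387% of all genes called higher. Egr3 was at 0.0613 in cluster 4 and 0.0412 in other cells, below the median level of all genes. Egr1, known to hold HSCs in the niche, was at 3.10 in cluster 4 and 2.52 in other cells, with a fold of 0.30 in the authors' deposited table. Nr4a2 (0.33) and Nr4a1 (0.25), orphan nuclear receptors, were not called in the authors' deposited table. Nab1 and Nab2, which encode corepressors of EGR proteins, had folds of 0.09 and -0.01 in the authors' deposited table.

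None of 39 measured feedback and secondary genes of the response was called, and 24 had a fold above 0, with a median of 0.07 in the authors' deposited table. Over all genes 0.387% were called higher, 1.35% were called lower and 52.2% had a fold above 0. Ppp1r15a (GADD34), which restarts translation after stress, was at 1.76 in cluster 4 and 1.31 in other cells, with a fold of 0.43. Sik1, a salt-inducible kinase (0.37), Klf2, a factor known to keep T cells quiescent (0.32), Btg2, an antiproliferative factor (0.31), and Zfp36l1, which degrades AU-rich messenger RNAs (0.30), followed in the authors' deposited table. The phosphatase gene Dusp1, which inactivates MAP kinases, was at 0.27, while Dusp2, which does the same, was at -0.27 in the authors' deposited table. Dusp2 was at 1.03 in cluster 4 and 1.24 in other cells, and its fold was the lowest of the 11 clusters. Ier2 (0.07), Nfkbia, the NF-kB inhibitor (-0.08), and Myc (-0.12) did not stand out in the authors' deposited table.

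Cluster 9, with 112 cells, is where these genes were highest. Over the 3 lists together, 4 of 67 measured immediate early genes were higher in cluster 4 and 1 was lower, whereas 37 of 67 were higher in cluster 9 and 1 was lower. Over all genes the share called higher was 0.387% in cluster 4 and 1.2% in cluster 9, and the share called lower 1.35% in cluster 4 and 19.9% in cluster 9. By the authors' deposited tables the median fold over the 67 genes was 0.11 in cluster 4, against 1.58 for cluster 9, 0.39 for 10, 0.10 for 2 and 0.02 for 1, and between -0.31 and -0.06 in clusters 0, 3, 5, 6, 7 and 8. Of the 67 genes, 22 had their highest fold among clusters 0 to 5 in cluster 4 and as many in cluster 2. Of the 49 well-detected members, 17 had their highest fold among clusters 0 to 5 in cluster 4, 14 had it in 2 and 8 in 1. The comparisons share cells, since the cells of each cluster are among the others of the rest. The upstream kinases and factors of the response had a median of 0.04 over 26 measured genes in the authors' deposited table, with none called. The largest was Rps6ka5 (MSK1), a kinase of histone H3 and CREB, at 0.35, and the serum response factor gene Srf was at -0.03.

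**Figure D2:**
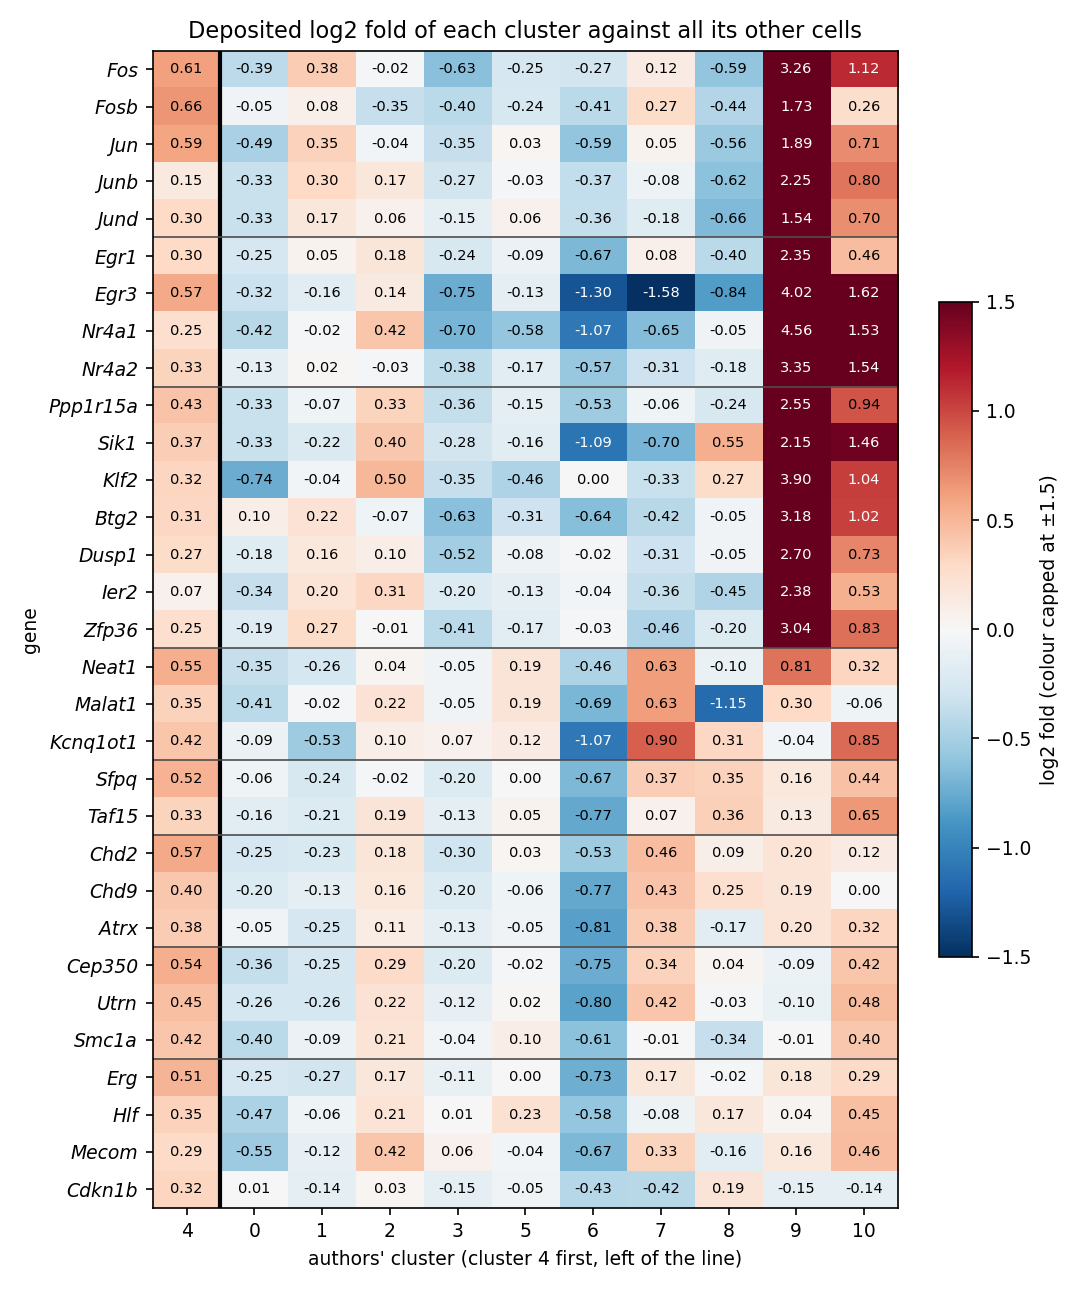
Deposited log2 fold of each cluster (columns, cluster 4 first) against all its other cells for immediate early genes, nuclear RNA, splicing, chromatin, scaffold and HSC genes (rows), with the value printed in each cell and the colour capped at ±1.5. The genes were picked, many of them for a high fold in cluster 4, so values above 0 there for every gene shown are not a result. Over the 3 immediate early lists 43 of 67 measured genes had a fold above 0 in cluster 4. Cluster 9 exceeds cluster 4 for the immediate early genes shown, as for Fos at 3.26.

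Of the nuclear RNAs and paraspeckle proteins, Neat1 and Sfpq were called higher in cluster 4, and both were among the markers given for it. Paraspeckles are nuclear bodies built on the long non-coding RNA Neat1 by RNA-binding proteins such as SFPQ, NONO and PSPC1. Neat1 was at 2.19 counts per 10000 in cluster 4 and 1.50 in other cells, with a fold of 0.55 in the authors' deposited table, above every cluster but 7 (0.63) and 9 (0.81). Sfpq was at 3.38 in cluster 4 and 2.35 in other cells, and its fold of 0.52 was the highest of the 11 clusters in the authors' deposited tables. Pspc1 had a fold of 0.28 and Nono of 0.06, so the other core proteins were not called in the authors' deposited table. Taf15, an RNA-binding protein, had 0.33 in the authors' deposited table. Of 31 measured paraspeckle proteins 1 was called higher, against 0.387% of all genes. A fold above 0 was found for 22, against 52.2% of all genes, with a median of 0.09 in the authors' deposited table.

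Other large nuclear RNAs had folds above 0 as well. Malat1, an abundant RNA of nuclear speckles, was at 244 in cluster 4 and 191 in other cells, with a fold of 0.35 in the authors' deposited table, and levels in the other clusters ran between 90.2 and 307. Kcnq1ot1, an imprinted antisense RNA, had a fold of 0.42 and Firre, an X-linked architectural RNA, 0.38 in the authors' deposited table. Host genes of small nucleolar RNAs went the other way, with 3 of 16 above 0 and a median of -0.11 in the authors' deposited table; Snhg4 was at -0.40 and Snhg15 at -0.27. The 22 nuclear non-coding RNAs, a list that includes Snhg15, had a median of 0.03, and of -0.02 over well-detected members, so their direction turned with the choice of members.

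Among 53 splicing genes 42 had a fold above 0, with a median of 0.09 and none called in the authors' deposited table. Over all genes 52.2% had a fold above 0, 0.387% were called higher and 1.35% lower. In the group of genes of 6520 to 8041 exonic bases, 1 of 10 groups described below, 72.0% had a fold above 0. The splicing list falls there, with a median exonic length of 7.62 kb over well-detected members. The highest members were Clk1, a kinase of splicing factors, Prpf4b, another such kinase (0.37), Pnn, a protein of the exon junction complex (0.35), and the RNA helicase gene Ddx17 (0.33) in the authors' deposited table. Clk1 was at 2.19 in cluster 4 and 1.66 in other cells, with a fold of 0.40, and its relatives Clk2, Clk4 and Clk3 had 0.30, 0.13 and -0.05 in the authors' deposited table. The SR proteins that such kinases phosphorylate did not follow, with Srsf2 at -0.11, Srsf3 at -0.07, Srsf7 at -0.06 and Srsf9 at -0.15 in the authors' deposited table. U2af1, which recognises the end of introns, was at -0.17 in the authors' deposited table.

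Genes for chromatin regulators were above 0 almost throughout, each by a small amount. Of 74 measured genes 72 had a fold above 0, against 51.4% of well-detected genes, and 11 passed the rule of 0.3, against 2.03%. By the authors' deposited tables the list median was 0.16 in cluster 4. It was 0.39 in cluster 10, 0.17 in 7 and 0.13 in 8, and between -0.52 and 0.08 in the remaining clusters. Chd2, a chromatin remodeller that works at transcribed genes, was at 1.27 in cluster 4 and 0.856 in other cells, and its fold of 0.57 was the highest of the 11 clusters in the authors' deposited tables. Atrx, which deposits histone H3.3 in heterochromatin, was at 2.87 in cluster 4 and 2.21 in other cells. Kmt2a, a histone methyltransferase needed by HSCs, was at 2.52 in cluster 4 and 1.93 in other cells, and the fold of each was 0.38 in the authors' deposited table. Chd9, a relative of Chd2, had a fold of 0.40. Setd2, the H3K36 methyltransferase (0.31), and Tet2, an enzyme that oxidises methylated cytosine (0.27), were of this size too, while Dnmt3a (0.07) and Ezh2 (0.07) were near 0 in the authors' deposited table. Baz1a (-0.15) and Setd1b (-0.05) were the members below 0.

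Cohesin genes, chosen after the pathway scores were seen, showed values of the same size. Cohesin is the ring complex that holds sister chromatids together and extrudes chromatin loops. Smc1a, a core ring subunit on the X chromosome, was at 3.70 in cluster 4 and 2.77 in other cells, and its fold of 0.42 was the highest of the 11 clusters in the authors' deposited tables. The loader Nipbl (0.32), the subunits Stag2 (0.30) and Rad21 (0.21) and the release factor Wapl (0.20) were above 0, while the core subunit Smc3 was at 0.06 in the authors' deposited table. Of 18 measured members 15 had a fold above 0, with a median of 0.16. Esco2 and Cdca5, which act in dividing cells, were at -0.09 and -0.13 in the authors' deposited table.

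Large cytoskeletal and centrosomal genes completed the higher side. Each of the 33 measured genes of the centrosome and large scaffold list had a fold above 0, with a median of 0.20 in the authors' deposited table. Of well-detected genes 51.4% had a fold above 0, and 89.8% in the longest of 10 groups by exonic length, described below. By the authors' deposited tables the list median was higher in clusters 7 (0.30) and 10 (0.48), and between -0.55 and 0.09 in the remaining clusters. Cep350, a centrosomal protein, was at 0.653 in cluster 4 and 0.448 in other cells, and its fold of 0.54 was the highest of the 11 clusters. Utrn, which encodes the membrane linker utrophin (0.45), and Dst, the cytoskeletal linker dystonin (0.43), followed in the authors' deposited table. A list of nuclear envelope and spectrin scaffold genes, written after pathway scores were seen, had 18 of 21 above 0 with a median of 0.21. It held Myh9, a non-muscle myosin heavy chain (0.44), Pcm1, a centriolar satellite protein (0.43), and Syne1, which ties the nucleus to the cytoskeleton (0.41), by the authors' deposited table.

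Gene length tracked the fold across the whole table. Over 8261 well-detected protein-coding genes, the fold in cluster 4 and the exonic length in the GENCODE annotation had a Spearman rho of 0.54, a description across genes that share cells and depth and are not independent. Genes were split into 10 groups by exonic length. In the shortest group, 13.6% had a fold above 0 and the median was -0.07. In the longest group, 89.8% had a fold above 0 and the median was 0.14 in the authors' deposited table. The rule of 0.3 called 3 genes higher in the shortest group (0.362%) and 63 in the longest (7.63%). The 173 genes called higher by that rule had a median exonic length of 8.52 kb, against 2.96 kb for the 19 called lower and 4.60 kb for all. The relation was also present within each of 3 equal groups by mean level. Of these, the least expressed had median folds of -0.05 for its short genes and 0.09 for its long genes, and the most expressed had -0.07 and 0.09.

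The same relation differed in sign between clusters. Spearman rho was 0.54 in cluster 4, against 0.58 in cluster 7, 0.16 in 2 and 0.04 in 5. In clusters 3, 0, 1 and 6 it was below 0, at -0.17, -0.18, -0.45 and -0.48 in that order. Equivalent depth was 15555 counts per cell in cluster 4, against 9579 for cluster 7, 10538 for 1 and 9651 for 6. Its part in the relation was not tested.

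**Figure D3:**
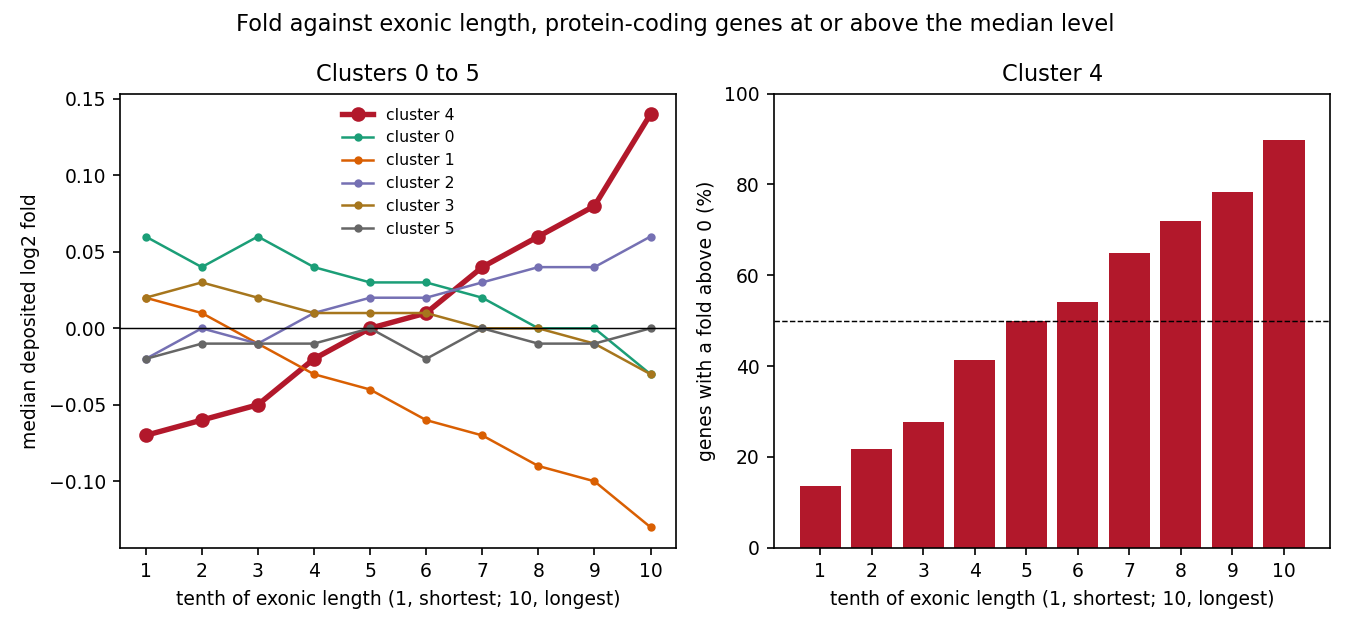
Left, median deposited log2 fold by group of exonic length (10 equal groups, 1 shortest and 10 longest) for cluster 4 (red) and clusters 0, 1, 2, 3 and 5; right, percentage of genes with a fold above 0 in cluster 4, with a dashed line at 50. Both use well-detected protein-coding genes, and in cluster 4 the median is -0.07 in group 1 and 0.14 in group 10.

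Immediate early genes had a median exonic length of 3.28 kb over well-detected members, below that of all genes. When the median fold of a gene's own length group was subtracted, the 49 well-detected immediate early genes had a median of 0.13 and 37 were above 0, against 33 before the subtraction. The EGR and NR4A factors had 0.27 with 5 of 5 above. The quiescence genes, which share Klf2, Btg2 and Egr1 with the immediate early lists, had 0.12 with 26 of 29. By the same measure chromatin regulators were at 0.06 with 51 of 74 above, and splicing genes at 0.03 with 28 of 51. Paraspeckle proteins were at 0.02 with 18 of 30 above. Other lists of long genes stayed further from 0, with nuclear envelope and spectrin scaffold genes at 0.17 and 17 of 18 above, cohesin genes at 0.14 and 13 of 16 above, and centrosome and large scaffold genes at 0.10 and 26 of 31 above. The 2 scaffold lists share members such as Utrn and Dst. The longest group ran from 10475 to 123179 bases with a median of 13111, and the centrosome list had a median of 16.3 kb. Subtraction by group therefore does not remove length differences within that group. Respiratory chain genes were at -0.03, with 20 of 77 above.

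Of the list of HSC transcription factors Erg was the member called higher. Erg, an ETS factor required for HSC maintenance (chromosome 16, 95359169 to 95586593, mm10), was at 1.19 in cluster 4 and 0.837 in other cells, and its fold of 0.51 was the highest of the 11 clusters in the authors' deposited tables. Hlf, a factor that marks long-term HSCs, was at 5.83 in cluster 4 and 4.58 in other cells, with a fold of 0.35 in the authors' deposited table. Of 53 measured HSC transcription factors 42 had a fold above 0, against 52.2% of all genes, with a median of 0.09 in the authors' deposited table. Of them 1 was called higher and 2 were called lower, against 0.387% and 1.35% of all genes. The lower ones were Gata1, the master factor of red cells and megakaryocytes (-1.14), and Nfib (-1.54), both below the median level. Spi1, which drives myeloid fate, was at -0.12 and Runx1 at 0.06 in the authors' deposited table.

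Genes tied to quiescence and ageing were slightly above 0 without a call. Of 31 quiescence genes 27 had a fold above 0, with a median of 0.13 in the authors' deposited table. This list shares members with others, among them the immediate early genes Klf2, Btg2 and Egr1, and without shared members its median was 0.09. Its median over all members was higher in clusters 2 (0.15), 9 (0.32) and 10 (0.39) by the authors' deposited tables. Cdkn1b (p27), an inhibitor of G1 kinases, was at 0.680 in cluster 4 and 0.545 in other cells, and its fold of 0.32 was the highest of the 11 clusters. Its relative Cdkn1c (p57), a hallmark of dormant HSCs, was at -0.02, and Cdk6, a kinase that speeds exit from quiescence and was not on that list, at -0.20 in the authors' deposited table. The retinoblastoma family genes Rb1 (0.23) and Rbl2 (0.22) and the fasting-responsive factor gene Foxo3 (0.18) were above 0 in the authors' deposited table. Of 41 ageing-associated HSC genes 34 had a fold above 0, against 52.2% of all genes, with a median of 0.09. The median of this list was higher in clusters 3 (0.34), 9 (0.36) and 10 (0.24) by the authors' deposited tables. In cluster 4 it was led by the oxysterol receptor gene Gpr183 (0.42). The megakaryocyte integrin gene Itga2b, also on that list, was at -0.30 in the authors' deposited table.

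**Figure D4:**
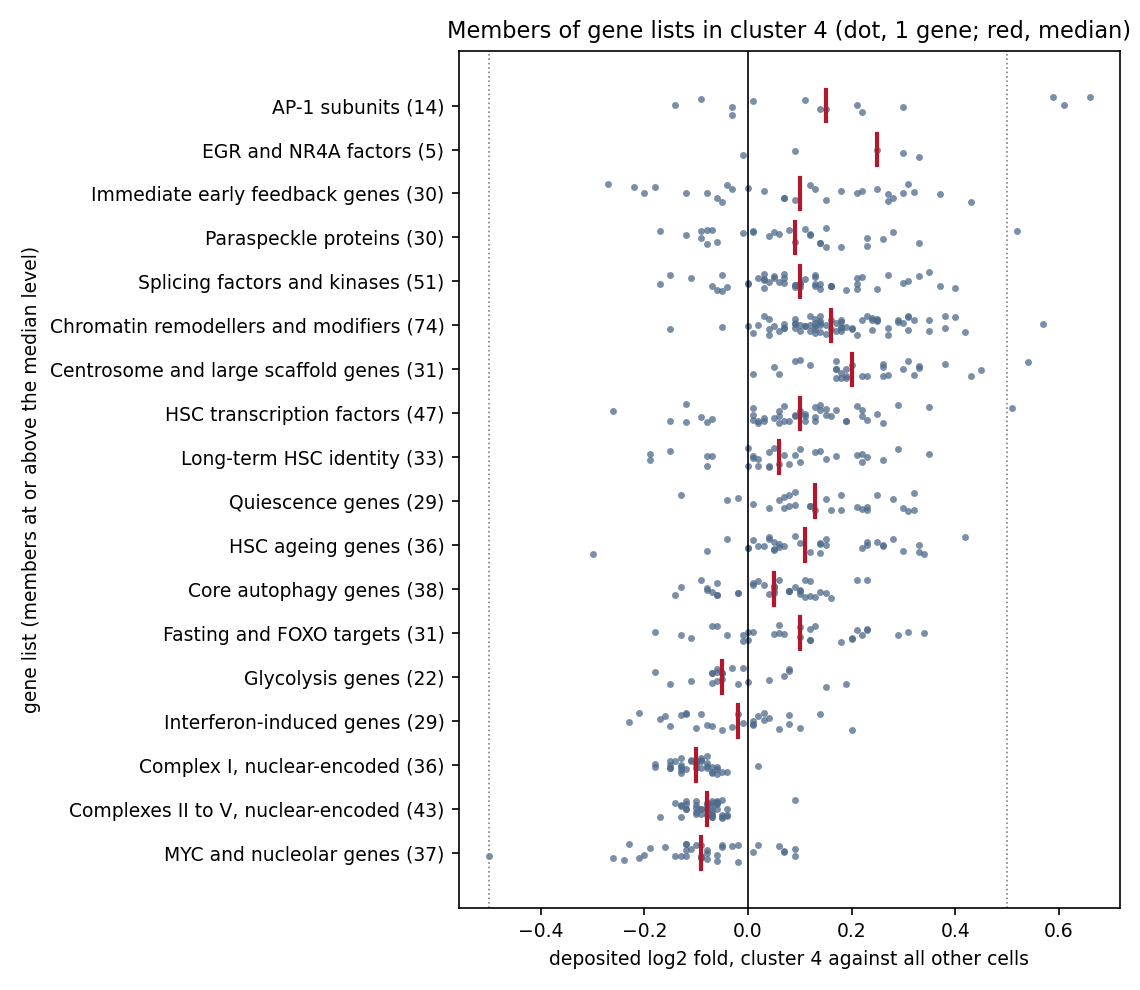
Deposited log2 fold in cluster 4 against all other cells for well-detected members of 18 gene lists (number of members in brackets); each dot is 1 gene, the red bar the median, and dotted lines mark ±0.5. Chromatin and scaffold genes lie almost wholly above 0 and respiratory chain genes almost wholly below 0, while the AP-1 genes Fosb, Fos and Jun stand beyond 0.5.

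The remaining named genes that were well detected and called higher were Zfp982 (0.60), a zinc finger gene, Fam184a (0.58), Utp14b (0.54), Ccdc171 (0.53) and Zrsr1 (0.50) in the authors' deposited table. Utp14b, which encodes a processing factor of ribosomal RNA, lies within Acsl3 on the same strand, and Zrsr1, related to a splicing factor, lies within Commd1 on the opposite strand, so reads of these pairs may not be separable. Of the 65 higher genes with an annotation, 46.2% overlapped another gene on the same strand, against 22.9% of all genes, and 20% lay inside another gene, against 9.08%. Genes of the clustered gamma protocadherins, which share their last exons, supplied 5 of the 66 calls and had a median of 0.64 over 21 members in the authors' deposited table. They were all below the median level, with a summed level of 0.243 in cluster 4 and 0.178 in other cells, and their values are uncertain because the authors' counting could split shared reads.

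On the lower side, most nuclear genes of the respiratory chain and the proteasome were a little below 0. Of 36 nuclear genes of respiratory complex I, 1 had a fold above 0, with a median of -0.10, and of 43 of complexes II to V, 1, with a median of -0.08 in the authors' deposited table. None was called, and the summed level of the 79 was 164 in cluster 4 and 174 in other cells. Of well-detected genes 51.4% had a fold above 0, and 13.6% in the shortest of the 10 length groups. By the authors' deposited tables the median of the 79 was -0.09 in cluster 4. It was -0.62 in cluster 7, -0.11 in 9 and -0.07 in 2, and between -0.04 and 0.33 in the remaining clusters. Ndufb7 of complex I was at 1.35 in cluster 4 and 1.52 in other cells, and the cytochrome c gene Cycs at 0.633 in cluster 4 and 0.71 in other cells. Mitochondrially encoded messenger RNAs were at 413 in cluster 4 and 429 in other cells in sum. Of these genes mt-Nd6 alone was called higher, at 0.55 in the authors' deposited table. It lies on the strand opposite to the others, against mt-Nd5 (0.05), and how the counting treated strand was not given in the labels. None of 39 proteasome subunit genes and 3 of 78 mitochondrial ribosomal protein genes had a fold above 0, each list with a median of -0.10 in the authors' deposited table. Their median exonic lengths were 2.81 kb and 2.39 kb. In the length groups that hold these lengths, 27.8% and 21.7% of genes had a fold above 0. After subtraction of the median of the length group each list was at -0.06, with 4 of 39 and 10 of 78 above 0. Cytoplasmic ribosomal proteins were at a median of -0.01, with a summed level of 3680 in cluster 4 and 3700 in other cells.

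Genes of growth and ribosome assembly were among the well-detected genes with the lowest folds. Srm, the spermidine synthase gene and a MYC target, was at 0.465 in cluster 4 and 0.657 in other cells, and its fold of -0.50 was the lowest of the 11 clusters in the authors' deposited tables. Of 38 MYC and nucleolar genes 7 had a fold above 0, against 52.2% of all genes, with a median of -0.09 in the authors' deposited table. By those tables the list median was lower in clusters 1 (-0.16), 2 (-0.10), 6 (-0.36) and 7 (-0.12). It was between -0.04 and 0.49 in the remaining clusters. In cluster 4 Rrp9, a small nucleolar RNA protein, was at -0.26 and Gnl3 (nucleostemin) at -0.24. Ctps, the CTP synthase gene (-0.33), and Rcc1, the exchange factor of RAN (-0.31), passed the rule of 0.3 in the authors' deposited table. Nucleolin (Ncl) was at 0.09.

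Some lineage-priming and secreted factor genes were called lower, nearly all at low levels. They were named because of the gene lists used, and do not describe the lower calls as a whole. Plac8, a gene of multipotent and myeloid progenitors, was at 0.234 in cluster 4 and 0.35 in other cells, with a fold of -0.58, against 1.73 for cluster 0 and 0.79 for 6 by the authors' deposited tables. The platelet glycoprotein gene Gp5 was at 0.0517 in cluster 4 and 0.0832 in other cells. Cd48, a surface protein whose absence is used to define HSCs, was at 0.00295 in cluster 4 and 0.00559 in other cells. Their folds were -0.69 for Gp5 and -0.92 for Cd48 in the authors' deposited table. Of 44 measured growth factors and ligands 12 had a fold above 0 and 5 were called lower, with a median of -0.12 in the authors' deposited table, and of -0.01 over the 10 well-detected ones. Those called were Il1b, Pdgfc, Fgf3, Igf1 and Angptl4, all below the median level. Over all genes 1.35% were called lower, nearly all of them below that level too. Igf1, insulin-like growth factor, was at 0.0270 in cluster 4 and 0.0448 in other cells (-0.73), and at 0.153 in cluster 2. Tgfb1, which restrains HSC cycling, was well detected and at -0.33 in the authors' deposited table.

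The few calls among interferon-induced genes were on the lower side, and all were below the median level. Of 36 measured genes 14 had a fold above 0, none was called higher and 4 were called lower, with a median of -0.06 in the authors' deposited table. Shares over all genes were 0.387% called higher and 1.35% called lower, the latter also nearly all below the median level. Of the 29 well-detected interferon-induced genes none passed the rule of 0.3, and their median was -0.02. Ifit3b (-1.42) and Ifit3 (-0.82) of a family that binds viral RNA, Ifi27l2a (-0.82) and the RNA sensor gene Oas2 (-0.54) were those called in the authors' deposited table. Ifit3 was at 0.0217 in cluster 4 and 0.0383 in other cells, against 0.0755 in cluster 2. The summed level of the list was 62.5 in cluster 4 and 61.1 in other cells. Isg15, which encodes a ubiquitin-like protein, was at -0.17 and Irf7 at -0.21 in the authors' deposited table.

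The study concerns autophagy and fasting, and genes of both were near 0 in cluster 4. For the counts that follow, the shares over all genes were 52.2% with a fold above 0, 0.387% called higher and 1.35% called lower. Of 43 core autophagy genes 32 had a fold above 0 and none was called, with a median of 0.06 in the authors' deposited table, and of 0.00 after subtraction of the value of the length group. Rb1cc1 (FIP200), a scaffold of the initiating kinase, had the highest value, 0.23, followed by the cargo receptor gene Sqstm1 (p62) at 0.21. Map1lc3b, the LC3 gene that builds autophagosome membranes, was at 3.81 in cluster 4 and 3.67 in other cells, and its relative Map1lc3a had a fold of -0.14 in the authors' deposited table. Of 41 fasting and FOXO target genes 29 had a fold above 0, with a median of 0.09, and Angptl4, a fasting-induced lipase inhibitor, was called lower at -0.73 in the authors' deposited table. Its level was 0.0380 in cluster 4 and 0.0629 in other cells. For glycolysis genes the authors' deposited table gave a median of -0.05, and 9 of 25 were above 0 with no call.

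Pathway scores, in which the authors tested a set score over cells, put 1191 of 2922 pathways higher (40.8%) and 692 lower (23.7%) in cluster 4 by adjusted p alone, so a pathway's place in the order says more than its call. The highest scores were for PID RHOA signalling (24.0), Reactome PTK6 and RNA processing (23.7), cohesin loading onto chromatin (23.2), mitotic telophase and cytokinesis (23.1) and the HNF3A pathway (23) in the authors' deposited table. AP-1 activation followed at 22.3, with a fold of 0.28 in cluster 4 and 1.06 in cluster 9. All 9 pathways named for AP-1, FOS or MAP kinase targets were higher, with a median fold of 0.14 in the authors' deposited table. The lowest scores were KEGG Parkinson's disease (-18.0), the electron transport chain (-17.4) and KEGG oxidative phosphorylation (-17.2), and all 9 respiratory chain pathways were lower with a median fold of -0.06. All 6 proteasome pathways were lower too. Autophagy and mitophagy pathways were divided, with 5 of 12 higher and 6 lower. Interferon pathways were higher in 9 of 10, with a median fold of 0.04 in the authors' deposited table, although no gene of the interferon list was called higher. Pathways share genes with each other and with the lists above, and their members were not analysed here.

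**Figure D5:**
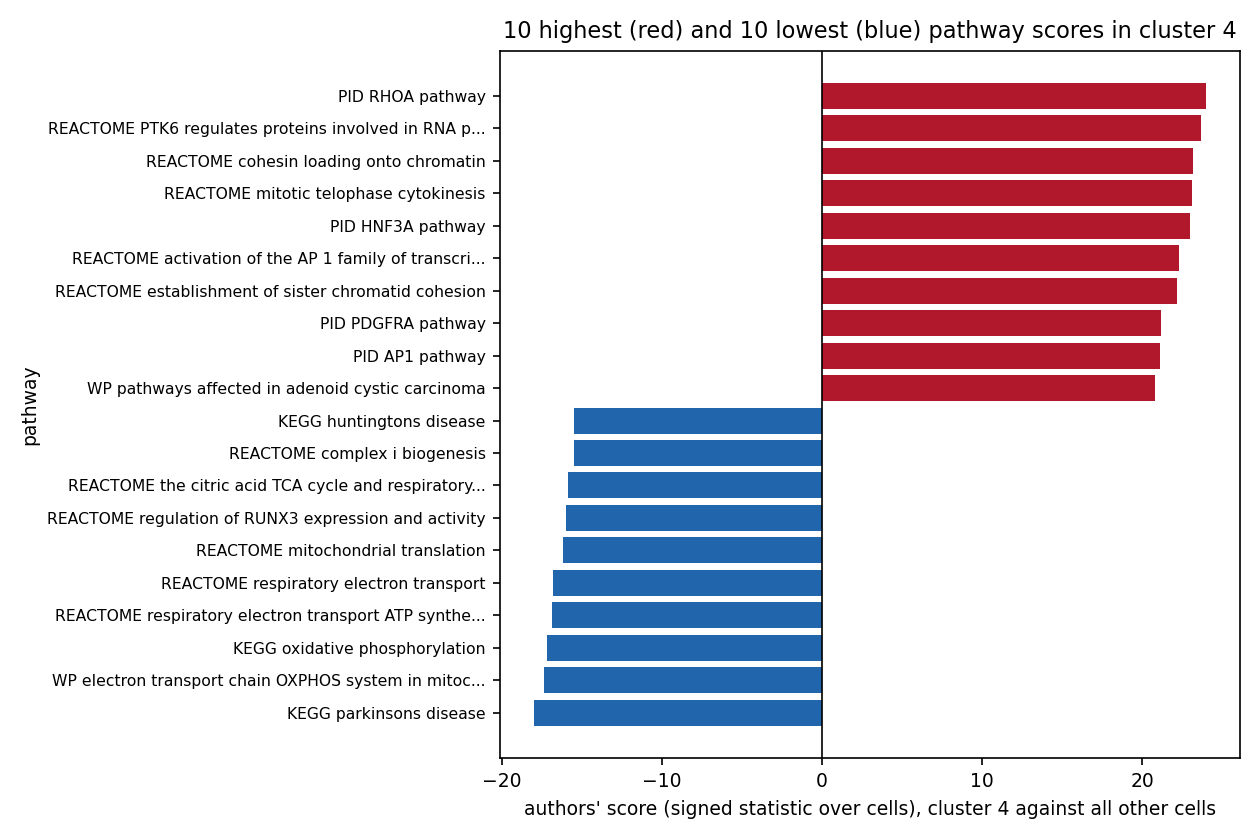
The authors' score (signed statistic over cells) of the 10 highest (red) and 10 lowest (blue) pathways in cluster 4 against all other cells. RHOA signalling is highest at 24.0 and KEGG Parkinson's disease lowest at -18.0.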

How the data were processed

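Single-cell RNA profiles of HSCs from 6 libraries had been clustered by the authors, who deposited 11 gene tables and 11 pathway tables, each of 1 cluster against all other cells. Per the submitters' processing notes, Scanpy and the mm10 build were used. For the aligner, cell filters, treatment of doublets, clustering settings and statistical test, nothing is stated (not given in the sources used here). In the gene tables the deposited log2 values are the mean level of a gene over all cells, scaled to 10000 counts per cell, and the fold of the cluster. The pathway tables hold the authors' score, a signed statistic over cells, and a log2 fold. The p-value columns deposited by the authors treat cells as replicates, and their adjusted values match a Benjamini-Hochberg adjustment over the table.

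The formula of the fold was checked on 4 genes counted in a single cell of cluster 4 (largest difference 1.1e-06 on the log2 scale), and cell numbers were read from the p-values of such genes. Levels in cluster 4 and in other cells were rebuilt from the mean, the fold and the cell shares, and they sum to 10032 in cluster 4 and 9994 in other cells instead of 10000. The deposited fold is a ratio of back-transformed mean log values, whereas a level is a mean of counts, so a rebuilt ratio is approximate. Of 17068 listed genes 13 had no count anywhere and were left out. A fold under -10 was read as no count in the cluster. No count test was possible, and no p-value was computed.

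Genes were matched to GENCODE M21 by symbol (16783 matched) for length and overlap. Genes were named by a rule: the markers given for cluster 4, the 20 highest and 10 lowest called genes at or above the median level (14 and 1 existed), up to 4 members per list with the largest fold, members that show a subgroup, and 10 pathways at each end of the score. Members, lists and rules were chosen with earlier results of these data known, and 4 lists, 7 gene families and 12 pathway groups were added after the tables were seen. Python 3.11.15, numpy 2.4.6, pandas 2.3.3, scipy 1.17.1 and matplotlib 3.10.9 were used, and scripts were tested on simulated data. Alternatives tried were other limits on the fold, the adjusted p and the level, the mean in place of the median of a list, and all detected genes in the length relation.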

Additional observations from a re-analysis of the deposited data

How the results depend on the processing

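The counts of calls in cluster 4 depend on the limits set. The 66 genes called higher became 342 at a fold of 0.3, 4 at a fold of 1, 29 at an adjusted p of 0.001 and 19 at or above the median level. The 230 called lower became 45 at an adjusted p of 0.001 and 1 at or above the median level. With a pathway fold of at least 0.1 added, 143 pathways were higher, against 1191, and 34 were lower, against 692. Over members at or above the median level, 4 list medians changed sign: nuclear non-coding RNAs to -0.02, against 0.03, megakaryocyte genes to 0.02, against -0.03, erythroid genes to 0.07, against -0.04, and lymphoid genes to 0.17, against -0.14. With the mean in place of the median, G2M phase genes were at -0.04, mitochondrially encoded genes at 0.01 and TGF-beta, BMP and adhesion genes at -0.05. With all detected protein-coding genes, an alternative chosen after seeing the data, rho between fold and exonic length was 0.32, against 0.54. The cause of these changes was not tested. No paired analysis was possible because the tables hold no per-library values, and leaving out each replicate could not be run for the same reason. Low genes have few counts in 3747 cells, so their folds are imprecise.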

Other observations

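Of 17 measured Hoxa and Hoxb genes, which pattern the embryo and support HSC self-renewal, 15 had a fold above 0, with a median of 0.13, and Hoxa6 was called higher at 0.62 in the authors' deposited table. Hoxa6 was below the median level and overlaps Hoxa3 on the same strand, so reads of this pair may not be separable. None of the 11 well-detected Hoxa and Hoxb genes passed the rule of 0.3. Of 339 zinc finger genes named Zfp plus a number, 237 had a fold above 0, against 52.2% of all genes, with a median of 0.07. Of them 6 were called higher and 1 lower, against 0.387% and 1.35% of all genes, and after subtraction of the median of the length group their median was 0.02, with 100 of 164 above 0. Of 47 cytokine receptor, JAK and STAT genes 33 had a fold above 0 and none was called, with a median of 0.08. By deposited fold cluster 4 was also the highest of the 11 clusters for Ets1, an ETS family factor of lymphoid and endothelial cells, at 0.38 in the authors' deposited table. Ets1 was at 0.227 counts per 10000 in cluster 4 and 0.174 in other cells, and it was chosen after its values were seen.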
